A study of Mus musculus with 4 samples.

Results

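Keratin genes were taken as every mouse gene whose symbol is Krt followed by digits and an optional letter, which gave 53 of the 31053 mouse genes in the files. At least 1 unique molecular identifier (UMI, a tag standing for 1 captured transcript) was found for 34 of them in the called cells, and 19 were at 0. The 15 with at least 10 UMIs over tumour epithelial cells and T/NK lymphocytes (Krt7, Krt8, Krt10, Krt13, Krt14, Krt15, Krt17, Krt18, Krt19, Krt23, Krt79, Krt80, Krt83, Krt86 and Krt222) are described by name. Each of the other 19 detected keratins had at most 19 UMIs over all called cells of the 4 tumours. The choice used no fold change, only the symbols and this count.

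Keratins are the intermediate filament proteins of epithelial cells. A filament is built from pairs of a type I and a type II chain, so genes of both types are normally read together, and the type is fixed by the gene. Simple epithelia such as the luminal layer of the mammary gland use Krt8 with Krt18, often with Krt7 and Krt19. Basal and myoepithelial cells use Krt5 and Krt14, stratified skin adds Krt1 and Krt10, and a separate group serves hair. In mouse the type I genes lie together on chromosome 11 and the type II genes on chromosome 15, with Krt18 as the type I gene beside Krt8.

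The study placed cells of H605, a HER2-positive mammary tumour line, in the mammary pad of FVB/NJ mice given as 6 to 8 weeks old. Hosts were wild type (WT, n = 2) or IL1α-/- (n = 2), and the tumours were taken at day 14, 1 tumour per library. The deletion is in the host and all 4 tumours come from the same line, so the transplanted cells are not stated to differ. The labels name 2 pairs collected on separate days without tying a replicate number to a day, so no fit uses the day. P-values by host genotype in T/NK lymphocytes and phagocytes measure the spread between these 4 tumours. The epithelial fit by host genotype holds 3 tumours. P-values between cell types measure the spread of their difference within 3 tumours.

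Libraries held 23464120 (WT 1), 29001333 (WT 2), 6705368 (IL1α-/- 1) and 15298532 UMIs (IL1α-/- 2), and 3130 to 3878 cells were called in each. Il1a, the gene the hosts lack, had 65 and 107 UMIs in the called cells of the WT tumours and 1 and 0 in the IL1α-/- tumours. Any pair of libraries shared 0 to 5 cell barcodes. Human keratin features, which the combined reference also holds, had 0 UMIs in all 4 libraries.

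Tumour epithelial cells were those with at least 2 Epcam UMIs and at most 1 Ptprc UMI. They numbered 287 in WT 1, 195 in WT 2, 24 in IL1α-/- 1 and 3 in IL1α-/- 2. In the first 3 tumours the gate held the tumour's milk and secretory genes: Csn3 stood at 10964, 9608 and 7747 CPM, and Erbb2, the HER2 receptor gene, at 199, 142 and 80.5 CPM. CPM here are UMIs of a gene per 1000000 mouse UMIs of the same gate. The 3 gated cells of IL1α-/- 2 carried markers of both cell types. They held 51 UMIs of the 8 T/NK marker genes (8417 CPM) and 21 of the fixed epithelial markers (3466 CPM). Among the latter were 2 UMIs of Csn3 and 0 of Erbb2. The same epithelial markers summed to 31872, 24111 and 33414 CPM in the first 3 tumours. Their values are given where they exist, and that tumour enters no epithelial test.

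T/NK lymphocytes, gated on at least 2 UMIs of 8 marker genes, numbered 2251, 2327, 2306 and 2334 in the same order, phagocytes 451, 727, 146 and 352, and fibroblasts 341, 208, 282 and 250. Median UMIs per cell were 11799, 10743 and 5323 in the epithelial gate of the first 3 tumours and 2833, 4106, 1292 and 2722.5 in T/NK lymphocytes. RNA outside cells was read from barcodes with at most 100 UMIs and is called free RNA. Because the libraries count 3′ ends, CPM of different genes can be set side by side without dividing by length.

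Keratins split by cell gate in a way that differed from gene to gene. In epithelial cells of the WT tumours Krt18, Krt8, Krt7 and Krt15 were the 4 most abundant keratins. In IL1α-/- 1 Krt18, Krt8 and Krt7 led as well, but Krt15 took 0.561% of the keratin UMIs, below Krt19 (3.74%) and Krt10 (2.06%). These last 3 shares rest on few UMIs, and all those of Krt19 came from 1 of 24 cells. In T/NK lymphocytes Krt83 was the most abundant keratin, in phagocytes it was Krt80, and in fibroblasts Krt10. By role, keratins of simple epithelium took 94.9% of the keratin UMIs of epithelial cells in WT 1, 90.7% in WT 2 and 97.01% in IL1α-/- 1, and basal keratins 3.76%, 8.55% and 0.561%. Summed over all keratin genes, the epithelial level was 2670.4 CPM in WT 1, 6155 in WT 2 and 3313 in IL1α-/- 1. In T/NK lymphocytes it was 41.5, 27.9, 16.5 and 18.7 CPM in WT 1, WT 2, IL1α-/- 1 and IL1α-/- 2. Phagocytes stood at 47.1, 32.6, 48.4 and 35.4 CPM, and fibroblasts at 38.2, 31.99, 43.8 and 13.9 CPM. The epithelial gate lay far above these 3 gates in each of the 3 tumours, and none of them passed 50 CPM in any tumour.

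**Figure D1:**
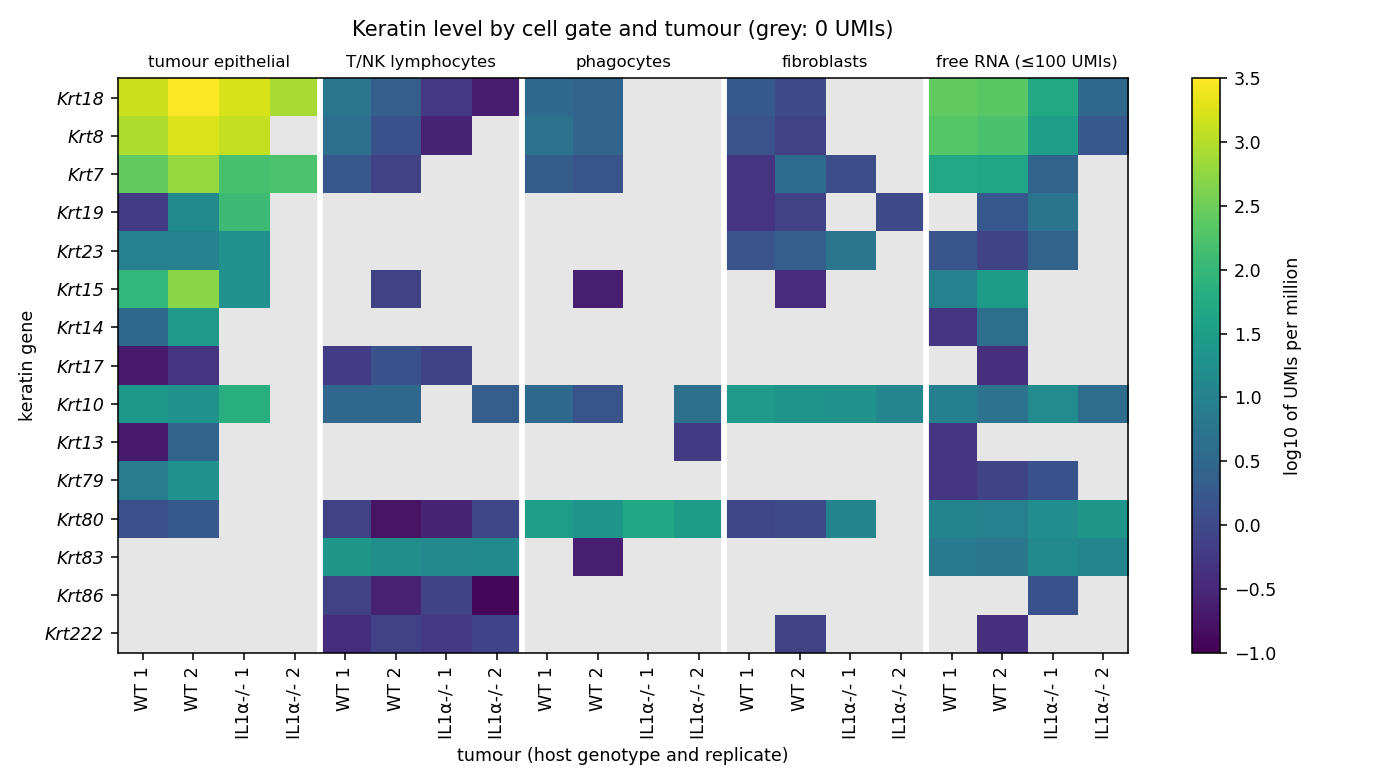
Level of the 15 named keratins (rows) in 5 sources (column blocks) of the 4 tumours, as log10 of CPM on the colour scale, with grey for 0 UMIs. Krt18 and Krt8 are brightest in epithelial cells, Krt83 is coloured in all 4 T/NK columns and grey in all epithelial columns, and Krt80 is coloured in all 4 phagocyte columns.

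To compare the gates, UMIs were summed per tumour and gate and fitted with edgeR's quasi-likelihood test with the tumour as a block, in the 3 tumours with at least 10 epithelial cells. All 10 keratins that passed the filter on low counts were called at a Benjamini-Hochberg adjusted p under 0.05, 9 higher in epithelial cells and 1, Krt83, lower. The background was high: 58.4% of the 11950 genes tested were called in this comparison, 30% higher and 28.4% lower. The median log2 difference of the 10 keratins was 9.10, and 6.71 with the 5 that had 0 UMIs in 1 gate set at the limits given below, against -0.01 for all genes tested. A keratin passes the filter through the gate in which it is abundant, so this count and median describe these 10 genes and are not a test of the family.

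The simple-epithelium keratins were the most abundant. Krt18, the type I chain of the simple pair (chr 15, 102028180 to 102032027 in mm10, plus strand), had 6517 UMIs in the epithelial cells of WT 1, 13162 in WT 2, 274 in IL1α-/- 1 and 5 in the 3 gated cells of IL1α-/- 2. As a level this was 1390.0, 3094, 1697 and 825 CPM. Krt8, its type II partner (chr 15, 101996698 to 102004482, minus strand), had 4124, 7888, 197 and 0 UMIs, or 879.6, 1854 and 1219.9 CPM in the first 3 tumours. WT 2 was the highest for both genes and WT 1 the lowest of the 3, with IL1α-/- 1 between them.

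The ratio of Krt8 to Krt18 UMIs was 0.633 in WT 1, 0.599 in WT 2 and 0.719 in IL1α-/- 1. Summed over all type II and all type I keratins the ratio was 0.751, 0.678 and 0.715. Type I UMIs were thus above type II UMIs in each of the 3 tumours, while the 2 WT tumours differed more in level than in either ratio.

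Krt8 and Krt18 are neighbours, 23.7 kb apart, and their levels moved together across the tumours, which is why the sequence upstream of each is shown. The lines give bases 250 to 151 before the RefSeq start (GRCm38.p6), 5′ to 3′ on the gene's own strand, a stretch outside every exon of both genes in GENCODE vM21. Krt8 is chr15:102004493-102004592 on the minus strand and Krt18 is chr15:102027966-102028065 on the plus strand. Capitals would mark a match to GGGCGG or TGANTCA on either strand.
Krt8: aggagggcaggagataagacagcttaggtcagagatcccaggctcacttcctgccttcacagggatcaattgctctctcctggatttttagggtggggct
Krt18: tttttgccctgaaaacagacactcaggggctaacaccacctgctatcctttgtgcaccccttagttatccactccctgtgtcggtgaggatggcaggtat
Neither window held a match, and the bases between the window and the start were not searched. Of all 32851 RefSeq start windows of the same place and length, 10.5% held GGGCGG, the core of the GC box, and 2.49% held TGANTCA, the AP-1 element. GC content was 53% for Krt8 and 51% for Krt18. RefSeq windows were given for 9 of 16 keratins, the 15 named at the outset and Krt36, a hair keratin described further on.

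Krt7, the type II keratin of glandular epithelia (chr 15, 101411043 to 101430313), had 1198, 2596 and 25 epithelial UMIs in WT 1, WT 2 and IL1α-/- 1, a level of 256, 610.3 and 155 CPM. Set against Krt8 UMIs this was 0.290, 0.329 and 0.127. Krt7 was thus lowest in IL1α-/- 1 on both measures, outside the range of the 2 WT tumours. Krt19, a type I keratin of simple and duct epithelium, had 3, 57 and 20 UMIs (0.640, 13.4 and 124 CPM). The 20 UMIs of IL1α-/- 1 came from 1 of its 24 cells. Krt23, another type I keratin, had 43, 40 and 3 UMIs (9.17, 9.40 and 18.6 CPM), and the interval of the last value, 3.83 to 54.3 CPM, covers the others.

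**Figure D2:**
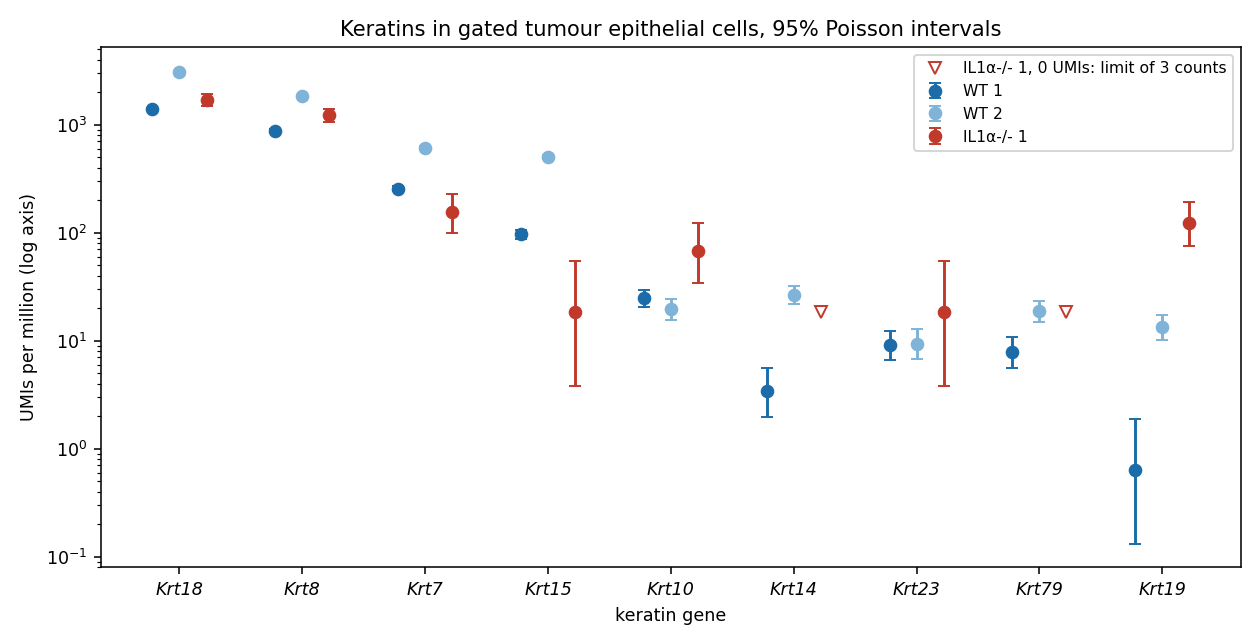
Level of 9 keratins in the gated epithelial cells of WT 1, WT 2 and IL1α-/- 1, in CPM on a log axis, with 95% Poisson intervals that cover counting error only; open triangles mark the limit of 3 counts where IL1α-/- 1 had 0 UMIs. Krt18 and Krt8 of IL1α-/- 1 lie between the 2 WT tumours, and Krt15 of IL1α-/- 1, at 18.6 CPM, lies below both.

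T/NK lymphocytes of the same tumours held few UMIs of these genes. Krt18 had 46, 27, 2 and 2 UMIs there and Krt8 had 35, 16, 1 and 0, in WT 1, WT 2, IL1α-/- 1 and IL1α-/- 2. Krt18 was higher in epithelial cells by a log2 difference of 9.44 (SE 0.66, n = 3 tumours, edgeR adjusted p = 1.43e-05), Krt8 by 9.28 (SE 0.71) and Krt7 by 8.53 (SE 0.55). The gates did not overlap for any of the 3 genes in the 3 tumours tested, and how many other genes also did not overlap was not counted. Krt19 and Krt23 had 0 UMIs in T/NK lymphocytes of all 4 tumours. With a floor of 3 counts over the group of 3 tumours, Krt19 was at least 67.9-fold and Krt23 at least 73.03-fold higher in epithelial cells. These limits rest on WT 2 in particular: without it they were 18.1-fold and 36.2-fold, and without IL1α-/- 1 that of Krt19 was 43.9-fold.

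Most epithelial cells carried the simple pair. A Krt18 UMI was found in 261 of 287 cells of WT 1 (90.9%, exact 95% interval 87.01 to 93.997), 183 of 195 of WT 2 (93.8%) and 21 of 24 of IL1α-/- 1 (87.5%). In T/NK lymphocytes, a cell type expected to lack Krt18, the share was 1.20%, 1.12%, 0.0867% and 0.0857% in WT 1, WT 2, IL1α-/- 1 and IL1α-/- 2, at the lower median depths given above. After thinning each epithelial cell to 2000 UMIs, which leaves out shallower cells, the Krt18 shares were 73.5% of 245 cells, 90% of 160 and 65% of 20. The interval of IL1α-/- 1 (40.8 to 84.6) covers WT 1 and stops short of WT 2.

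Within a tumour the pair tracked each other from cell to cell. Spearman's rho between Krt8 and Krt18 UMIs was 0.895 over 287 cells of WT 1 and 0.945 over 195 cells of WT 2, given as a description since cells share a library and differ in depth. At 2000 UMIs per cell it was 0.363 and 0.587. Cells with 0 UMIs of Krt7, Krt8 and Krt18 made up 12 of 287 (4.18%) in WT 1, 5 of 195 (2.56%) in WT 2 and 0 of 24 in IL1α-/- 1. At 2000 UMIs per cell they were 25 of 245 (10.2%), 2 of 160 (1.25%) and 2 of 20 (10%) in the same order. The median cell had 11 Krt18 UMIs in WT 1 and 4 in IL1α-/- 1, whose cells were shallower.

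Basal keratins were unevenly present. Krt15, a type I keratin of basal and progenitor cells (chr 11, 100131758 to 100135928, minus strand), had 454, 2122 and 3 epithelial UMIs in WT 1, WT 2 and IL1α-/- 1. The level was 96.8, 499 and 18.6 CPM, with exact 95% Poisson intervals of 88.1 to 106, 478 to 521 and 3.83 to 54.3. These 3 intervals, which cover counting error only, do not meet. Unlike Krt18, Krt15 was concentrated in few cells: 37 of 287 in WT 1 and 71 of 195 in WT 2 had a UMI, and the top 10% of cells held 97.8% and 85.96% of all Krt15 UMIs (65.2% in WT 2 at 2000 UMIs per cell). At 2000 UMIs per cell the shares were 8.16% and 26.2%, so WT 2 remained above WT 1. IL1α-/- 1 had 2 of 24 cells with a Krt15 UMI, an interval of 1.03% to 26.997% that reaches the WT 1 value of 12.9%.

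Other keratins went with Krt15 in the same cells. In WT 2, Krt14 was found in 30.99% of cells with a Krt15 UMI and 4.03% of cells without, Krt79 in 25.4% and 2.42%, and Krt19 in 14.1% and 1.61%. In WT 1, Krt79 was found in 35.1% and 0.400%. At 2000 UMIs per cell the WT 2 shares were 11.9% and 1.69% for Krt14 and 9.52% and 0.847% for Krt79. In WT 2 cells with Krt15 thus more often carried these keratins at 1 fixed depth too, in counts of 4 or 5 cells. In WT 1 at that depth Krt79 was found in 0 of 20 cells with Krt15 and 0 of 225 without, which allows no comparison.

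Krt14, the type I chain of the basal pair (chr 11, 100203162 to 100207548), had 16 UMIs in WT 1, 113 in WT 2 and 0 in IL1α-/- 1, or 3.41 and 26.6 CPM in the WT tumours. Zero UMIs in IL1α-/- 1 allow a level of up to 18.6 CPM, so a level like that of WT 1 was not detectable there. Its partner Krt5 had 2 UMIs over all epithelial cells, both in WT 2. Krt15 was higher in epithelial cells than in T/NK lymphocytes by a log2 difference of 9.47 (SE 0.42), and Krt14, with 0 UMIs in T/NK lymphocytes, at least 110-fold. WT 2 held 113 of the 129 Krt14 UMIs behind that limit, which was 12.6-fold without it.

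Krt17, a basal and injury-associated type I keratin, had 5, 16, 3 and 0 UMIs in T/NK lymphocytes of WT 1, WT 2, IL1α-/- 1 and IL1α-/- 2 and 3 in all epithelial cells. All 5 UMIs of WT 1 lay in 1 cell, the 16 of WT 2 in 5 cells and the 3 of IL1α-/- 1 in 1 cell. Reads of Krt14 and Krt17 can be mistaken for each other, since 11.1% of the 31-base words in the last 400 transcript bases of each occur in the other. The injury keratins Krt6a, Krt6b and Krt16 each had at most 5 UMIs in the epithelial gate.

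Among keratins of stratified epithelium, Krt10 (chr 11, 99385254 to 99389364) was the most widely spread. Its level in epithelial cells was 24.7, 19.5 and 68.1 CPM in WT 1, WT 2 and IL1α-/- 1, from 116, 83 and 11 UMIs. In fibroblasts it was 27.7, 21.1, 19.6 and 12.3 CPM in WT 1, WT 2, IL1α-/- 1 and IL1α-/- 2. Fibroblasts of the WT tumours thus lay near the epithelial cells of the same tumours. T/NK lymphocytes stood at 3.30, 3.15, 0 and 2.33 CPM, and phagocytes at 3.42, 1.46, 0 and 4.56 CPM. Krt10 was higher in epithelial cells than in T/NK lymphocytes by 3.24 (log2, SE 0.67, edgeR adjusted p = 0.0040), the smallest of the 9 differences in that direction. Krt1, its type II partner in skin, had 2 UMIs in T/NK lymphocytes and 0 in the other gates.

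Fibroblasts with a Krt10 UMI were 50 of 341 in WT 1, 45 of 208 in WT 2, 14 of 282 in IL1α-/- 1 and 22 of 250 in IL1α-/- 2. When each cell was thinned to 1000 UMIs the shares were 2.75%, 2.09%, 2.37% and 2.11%, close to one another and within each other's intervals. Gm11940, on the other strand, overlaps Krt10, and how the counting treated strand is not given in the sources used here.

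Krt79, a type II keratin of skin and its glands, had 37, 80 and 0 epithelial UMIs (7.89 and 18.8 CPM in the WT tumours) and 0 in T/NK lymphocytes of all 4 tumours. It was at least 99.4-fold higher in epithelial cells, and at least 29.1-fold without WT 2. Krt13, the type I keratin of wet stratified epithelium, had 1, 12 and 0 epithelial UMIs.

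Krt80, a type II keratin of maturing epithelium (chr 15, 101347444 to 101370162), was a phagocyte keratin here. Phagocytes held 77, 95, 16 and 51 UMIs in WT 1, WT 2, IL1α-/- 1 and IL1α-/- 2, a level of 32.9, 23.1, 48.4 and 29.1 CPM. Epithelial cells held 6, 8, 0 and 0 UMIs, and T/NK lymphocytes 6, 2, 1 and 8. Fibroblasts had a mean of 1.04 CPM (SD 0.12) in the WT tumours and 5.18 CPM (SD 7.33) in the IL1α-/- tumours. Cells of no gate had 6.90 CPM (SD 0.95) and 11.3 CPM (SD 8.15). In each tumour the phagocyte level was above that of the T/NK lymphocytes, and it lay above the free RNA level, which was 10.9, 8.95, 16.1 and 23.7 CPM. The margin over free RNA was smallest in IL1α-/- 2 (29.1 against 23.7 CPM), and IL1α-/- 1 had 16 phagocyte UMIs. Counting error was not set against these margins. Phagocytes with a Krt80 UMI were 12.9% in WT 1, 9.22% in WT 2, 8.22% in IL1α-/- 1 and 12.5% in IL1α-/- 2, against 0.267%, 0.0859%, 0.0434% and 0.214% of T/NK lymphocytes. Gm35853 overlaps Krt80 on the other strand, so the 2 genes cannot be told apart without strand.

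Krt83, a type II keratin of hair (chr 15, 101485130 to 101491512, minus strand), was the main keratin of T/NK lymphocytes. Its UMIs there were 186 in WT 1, 198 in WT 2, 46 in IL1α-/- 1 and 121 in IL1α-/- 2, a level of 23.6, 16.9, 12.9 and 14.1 CPM. It made up 56.9%, 60.4%, 77.97% and 75.2% of the keratin UMIs of these cells. Epithelial cells and fibroblasts had 0 UMIs in all 4 tumours and phagocytes had 1, in WT 2. Cells of no gate had a mean of 2.25 CPM (SD 1.41) in the WT tumours and 9.24 CPM (SD 10.2) in the IL1α-/- tumours. Which cells these were was not tested. With the floor of 3 counts over the epithelial gates of 3 tumours, Krt83 was at least 56.3-fold higher in T/NK lymphocytes, and at least 23.4-fold without WT 1 and 32.8-fold without WT 2, whose epithelial cells set most of the floor.

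Krt83 was spread over many cells at 1 or a few UMIs. It was found in 138 of 2251 T/NK lymphocytes of WT 1 (6.13%), 125 of 2327 of WT 2 (5.37%), 40 of 2306 of IL1α-/- 1 (1.73%) and 105 of 2334 of IL1α-/- 2 (4.50%). None of the 287 epithelial cells of WT 1, at a higher median depth, had a UMI. At 1000 UMIs per cell the shares were 1.88%, 1.63%, 1.21% and 1.17%. The T/NK level was 3.51, 2.82, 0.957 and 1.23 times that of free RNA in WT 1, WT 2, IL1α-/- 1 and IL1α-/- 2, while Krt18 in the same cells stood at 0.0227, 0.0103, 0.0101 and 0.0712 times its free level. None of the 31-base words at the transcript end of Krt83 occurs in another gene.

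The T/NK gate was divided by UMIs of Ncr1, a natural killer receptor, and of the T cell genes, a division chosen after Krt83 values had been seen and therefore given with no test. Cells with Ncr1 and no Cd3 UMI had Krt83 at 29.9, 24.9, 37.3 and 28.01 CPM in WT 1, WT 2, IL1α-/- 1 and IL1α-/- 2. Cells with Cd3 and Cd8 had 17.996, 4.88, 0.594 and 11.8 CPM, and cells with Cd3 and Cd4 had 17.3, 13.7, 5.88 and 5.81 CPM. Cells with Cd3 and Trdc, a gamma-delta T cell receptor gene, had 21.3, 13.5, 6.90 and 27.95 CPM, and the remaining T/NK cells 22.4, 18.7, 23.6 and 12.5 CPM. The first set was above the Cd8 and Cd4 sets in all 4 tumours, with counting intervals that overlap in WT 1 and, for the Cd4 set, in IL1α-/- 1. It did not stand apart from the Trdc set in the same way: their intervals overlap in every tumour but WT 2, and in IL1α-/- 2 the levels were nearly equal. By share of cells with a Krt83 UMI the Trdc set was the higher in WT 1 (7.77% against 7.26%) and in IL1α-/- 2 (8.79% against 6.82%). The intervals of the first set and the remaining cells overlap in all 4 tumours. The Cd8 set itself numbered 137, 255, 848 and 811 cells, so it took a larger share of the gate in the IL1α-/- tumours.

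**Figure D3:**
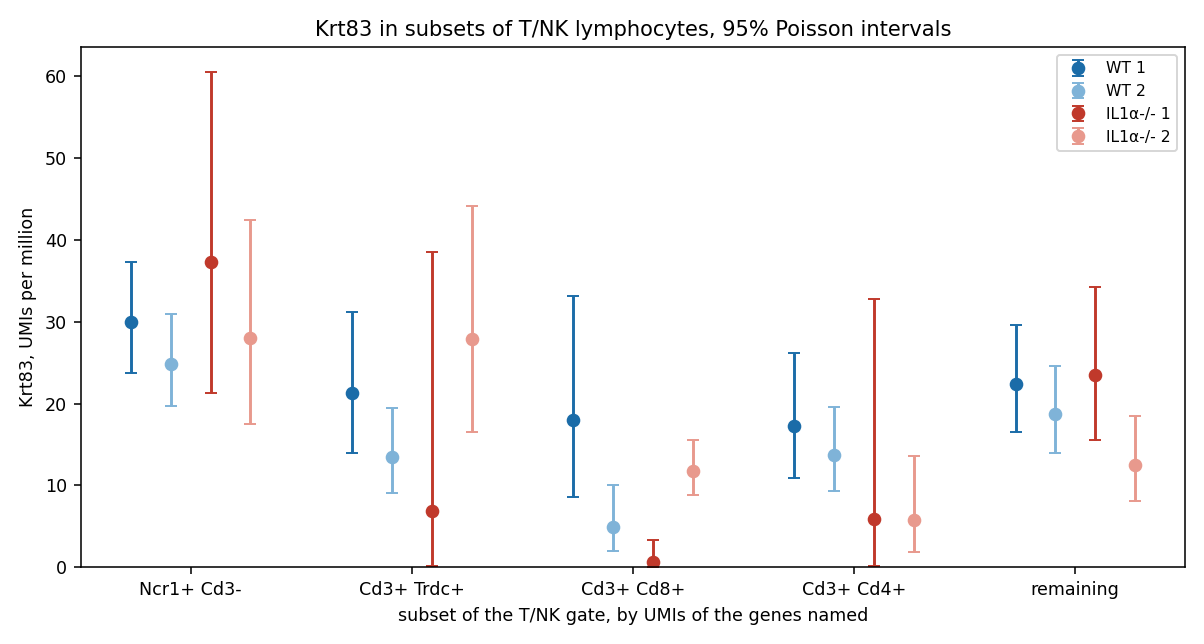
Krt83 level in 5 subsets of the T/NK gate, in CPM, with 1 point per tumour and 95% Poisson intervals that cover counting error only. The Ncr1+ Cd3- points lie between 24.9 and 37.3 in all 4 tumours, the Cd3+ Trdc+ points run from 6.90 to 27.95, and the Cd3+ Cd8+ points from 0.594 to 17.996.

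Lymphocytes with a Krt83 UMI also differed in other genes, a description of cells sharing 4 libraries. Xcl1, a chemokine of natural killer and CD8 T cells, was at 1352 CPM in cells with Krt83 and 847 in cells without in WT 1, and at 245 and 96.3 in IL1α-/- 2. Gzma, a granzyme, went the other way, at 128 and 699 CPM in WT 1 and 146 and 793 in IL1α-/- 2. Gzma was lower and Xcl1 higher in cells with Krt83 in all 4 tumours, though Gzma differed little in IL1α-/- 1 (495 against 657 CPM, 40 cells with Krt83). Both were picked from a longer list of genes read in the same way. In it Ncr1, Tbx21 and Itga1 were also higher, and Gzmb, Gzmc, Nkg7, Trac and Cd4 also lower, in all 4 tumours. Eomes was higher in IL1α-/- 1 (154 against 133 CPM) and lower in the other tumours.

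Krt86, the neighbouring hair keratin 5.14 kb from Krt83, had 6, 3, 3 and 1 UMIs in T/NK lymphocytes and 0 in epithelial cells, phagocytes and fibroblasts. In 3 of the tumours every one of these UMIs lay in cells with Ncr1 and no Cd3, and in IL1α-/- 1 all 3 lay among T/NK cells outside the 4 defined subsets. Krt222, a keratin-like type I gene, had 3, 9, 2 and 7 UMIs in T/NK lymphocytes and 0 in epithelial cells. Krt36, a type I hair keratin named after its values were seen, had 8, 0, 4 and 1 UMIs in fibroblasts and 0 in the other 3 gates.

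Host genotype was compared first in epithelial cells, in 2 WT tumours against 1 IL1α-/- tumour, whose spread is assumed to be that of the WT pair. None of the 9 keratins tested was called by edgeR, against a background of 0% of 11191 genes, and 1 keratin and 1071 genes had an unadjusted p under 0.05. DESeq2 called 8 genes, of which 0 were keratins, and had 2 keratins at an unadjusted p under 0.05. Krt18 had a log2 difference (IL1α-/- minus WT) of -0.41 (SE 0.56, edgeR adjusted p = 0.789), Krt8 of -0.17 (SE 0.53), Krt7 of -1.49 (SE 0.69) and Krt15 of -4.01 (SE 1.59, adjusted p = 0.519). Krt10 had 1.62 (SE 0.38, adjusted p = 0.500) and Krt19 4.14 (SE 1.58), the latter from 1 cell. The median log2 difference of all genes was -0.24, and T/NK marker UMIs in this gate stood at 155 CPM in IL1α-/- 1 against 20.5 and 10.1 in the WT tumours, whose part in these values was not tested.

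In T/NK lymphocytes 1 of 4 keratins tested was called by host genotype, against 4.99% of 11160 genes and 1.99% called lower. This was Krt18, at 5.84, 2.30, 0.560 and 0.233 CPM in WT 1, WT 2, IL1α-/- 1 and IL1α-/- 2. Both WT tumours were above both IL1α-/- tumours, and how many other genes separated the genotypes in this way was not counted. The log2 difference was -3.46 (SE 0.75, n = 2 and 2, edgeR adjusted p = 0.0419), from 73 UMIs in WT tumours and 4 in IL1α-/- tumours. The call was lost without WT 1 (adjusted p = 0.217), without WT 2 (0.136) and without IL1α-/- 2 (0.0823).

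The level of Krt18 in lymphocytes moved with tumour RNA in the libraries. Free RNA held Krt18 at 257, 223, 55.1 and 3.27 CPM, and fewer tumour cells and less RNA per cell cannot be told apart in it. Csn3, a milk protein gene of the tumour cells, fell in T/NK lymphocytes as well, from 18.3 and 8.43 CPM to 1.68 and 0 (log2 -4.57, SE 0.85, edgeR adjusted p = 0.0275), and so did Lcn2 (-4.95, SE 0.79). Of the 10 genes fixed as epithelial tracers 5 were tested in these cells and 3 fell, where 1.99% of all genes tested were called lower. Epcam was the third. The T/NK gate admits only cells with fewer than 2 Epcam UMIs, so the gate itself limits that value. Krt18 in T/NK lymphocytes stood at 2.27%, 1.03%, 1.01% and 7.12% of its free RNA level, and Csn3 at 1.16%, 1.04%, 1.29% and 0%. The part of free RNA in the call was not tested.

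Krt8 followed Krt18, at 4.44, 1.36, 0.280 and 0 CPM, with a log2 difference of -4.77 (SE 1.20) that missed the threshold (edgeR adjusted p = 0.0612). Krt83 did not show a called difference: both WT values were above both IL1α-/- values, with a log2 difference of -0.53 (SE 0.22, adjusted p = 0.186). Krt10 had -1.05 (SE 0.71, adjusted p = 0.392) and was at 0 in IL1α-/- 1 only. Without IL1α-/- 2 the Krt10 difference was called (adjusted p = 0.0143), and without IL1α-/- 1 that of Krt8 was (adjusted p = 0.0132).

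**Figure D4:**
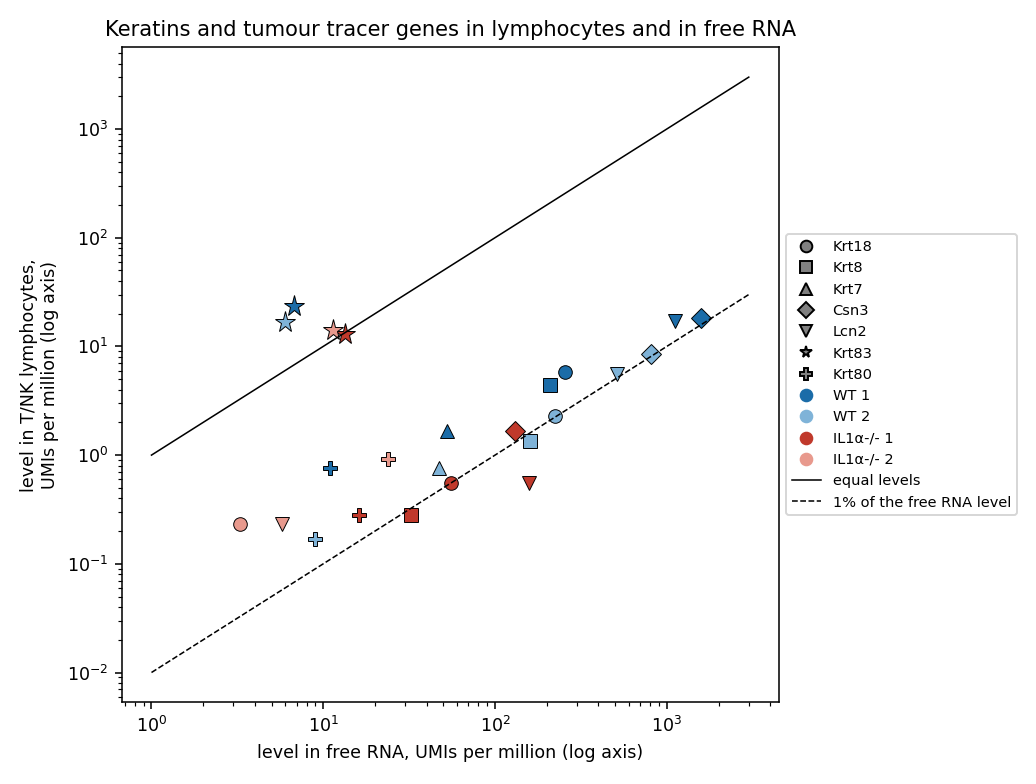
Level in T/NK lymphocytes against level in free RNA of the same tumour, both in CPM on log axes, for 5 keratins and the tumour genes Csn3 and Lcn2; each symbol is a gene, each colour a tumour, and points at 0 on either axis are not drawn. Krt18, Krt8, Csn3 and Lcn2 lie near the line of 1% of the free level in the 3 tumours with at least 10 epithelial cells. Krt83 lies near or above the line of equal levels in all 4.

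In phagocytes, Krt80 was the single keratin that passed the filter, and it was not called by host genotype (log2 0.39, SE 0.31, edgeR adjusted p = 0.611), against 0.368% of 9234 genes called. The WT values, 32.9 and 23.1 CPM, overlapped the IL1α-/- values, 48.4 and 29.1. Krt8 and Krt18 had 11 and 8 UMIs in phagocytes of WT 1, 12 and 12 in WT 2, and 0 in both IL1α-/- tumours. These levels, 2.92 to 4.71 CPM in the WT tumours, were 1.31% to 2.26% of free RNA.

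Genes that hold or regulate keratins were read from fixed lists. Of 17 anchor genes (desmosomes, hemidesmosomes and plakins) 15 were tested between epithelial cells and T/NK lymphocytes, 13 were higher in epithelial cells and 1 lower, where 30% and 28.4% of all genes tested were. As with the keratins, genes of these lists pass the filter through the gate in which they are abundant, so the counts describe the genes tested. Eppk1, which binds keratin bundles, was higher by 9.34 (log2, SE 0.51), Pkp1, a desmosome plaque protein, by 9.07 and Itgb4, the hemidesmosome integrin, by 8.33. Pkp3, another plaque protein, was lower by a log2 difference of -0.69. Of 14 epithelial transcription factors 12 were tested and 10 were higher, led by Tfap2c, Ehf and Grhl2 at 9.09, 8.96 and 8.27. Among 10 other intermediate filament genes 5 were tested: Nes (8.06) and the lamin gene Lmna (3.23) were higher in epithelial cells, and Vim, the filament of mesenchymal and blood cells (-1.77), and Lmnb1 (-1.42) were lower. Of 5 myoepithelial genes 2 were tested and both, Oxtr and Mylk, were higher.

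By host genotype these lists gave few calls. In T/NK lymphocytes Dst, a plakin, was lower in IL1α-/- tumours by a log2 difference of -1.07 (SE 0.24, edgeR adjusted p = 0.0456), 1 of 9 anchor genes tested, where 4.99% of all genes were called. Its levels were 16.0005 and 13.6 CPM in the WT tumours and 5.596 and 7.67 CPM in the IL1α-/- tumours. Lmna was higher by 1.68 (SE 0.30), at 26.7 and 38.9 CPM against 72.2 and 131, 1 of 4 other intermediate filament genes tested. Nothing about the lists is read from 1 call in so few genes. The genotypes did not overlap for Dst or Lmna, and how many other genes also did not overlap was not counted. In phagocytes 0 genes of any list were called and 4 had an unadjusted edgeR p under 0.05, as had 1276 of all 9234 genes tested. The anchor, transcription factor, other filament, tracer and myoepithelial lists had 6, 2, 4, 5 and 0 genes tested there. In epithelial cells, with 1 IL1α-/- tumour, the lists are given no count.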

How the data were processed

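Single-cell RNA was read from 4 tumours, 1 library each. The deposited matrices hold raw UMI counts per gene and barcode, made by the authors with Cell Ranger 3.1.0 on mm10, per the submitters' processing notes, with empty droplets left in. The features name a combined human and mouse reference, of which mouse features were used. Whether the counting used strand is not given in the sources used here.

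Barcodes with at least 500 mouse UMIs, 250 genes and at most 20% mitochondrial UMIs were kept. The highest Scrublet scores (scanpy 1.11.5) were removed at 0.8% per 1000 cells. Barcodes were not tested against free RNA. Cells were gated by fixed markers: epithelial cells by Epcam and Ptprc, T/NK lymphocytes by at least 2, and phagocytes and fibroblasts by at least 3, UMIs of their markers. The last 3 gates also required fewer than 2 Epcam UMIs. UMIs were summed per gate and tumour and fitted over all mouse genes with edgeR 4.0.16 (TMM, filterByExpr, glmQLFTest, Benjamini-Hochberg, threshold 0.05), with no block by host genotype and the tumour as block between gates. The scripts were tested on simulated data. SE is the log2 fold change divided by the square root of F.

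Intervals are exact Poisson for CPM and exact Clopper-Pearson for shares, at 95%, and like the floor of 3 counts cover counting error only. Alternatives were DESeq2 1.42.0, no filter on low counts, a replicate block, leaving out each tumour, and stricter cell and gate limits. Named keratins had at least 10 UMIs over epithelial and T/NK cells. Of the other lists the members past the threshold with the largest changes are named. Members and lists were chosen with earlier results of these data known. Positions are from GENCODE vM21.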

Additional observations from a re-analysis of the deposited data

Results flagged for a closer look

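Cells that fell into none of the 4 gates were used in no comparison, and in the WT tumours they held tumour keratins. Krt18 had 537 UMIs in the 543 such cells of WT 1 (291 CPM) and 982 in the 421 of WT 2 (612 CPM), against 6 in the 372 of IL1α-/- 1 and 7 in the 308 of IL1α-/- 2. Krt8 had 433, 639, 5 and 10 UMIs in the same order. The fixed epithelial markers summed to 5679 and 2894 CPM there in the WT tumours and to 606 and 115 CPM in the IL1α-/- tumours. Whether these are tumour cells with few Epcam UMIs, doublets or other cells was not tested.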

How the results depend on the processing

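The number of keratins called by host genotype in T/NK lymphocytes was 1, and it was 2 with DESeq2, 3 with no filter on low counts, 2 with the replicate block, 2 with Epcam at 0 UMIs in the non-epithelial gates and 0 to 2 when each tumour was left out in turn (0 without WT 1 and without WT 2, 2 without IL1α-/- 1). Over the alternatives Krt18 was called in 11 of 14, with log2 differences from -4.24 to -2.68, and Krt8 in 5 of 14, from -7.68 to -3.22. Genes called over the whole table ranged from 21 to 1741 there, from 2 to 508 in phagocytes, from 0 to 18 in epithelial cells and from 4052 to 7685 between the gates. The IL1α-/- minus WT difference in summed keratin level of phagocytes was 2.07 CPM (WT SD 10.3), and without 1 tumour it ran from -5.17 (without WT 2) to 9.32 (without WT 1), with -4.46 without IL1α-/- 1. No other count of called keratins moved by over 1.5 times under the settings that gave a value, and among single genes by host genotype 6 values gained and 3 lost a call. The limits on the folds of Krt14, Krt19, Krt23, Krt79 and Krt83 between the gates were also taken without each of 3 tumours, an alternative chosen after seeing the data, and are given beside those genes where they moved by over 1.5 times.

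The correlation of deviations between same-numbered tumours was 0.166 in T/NK lymphocytes and 0.0328 in phagocytes, over 2 pairs, and the numbers are tied to no collection day, so they are taken as numbers only. With the replicate block Krt8 was called in T/NK lymphocytes (adjusted p = 0.00857) beside Krt18 (0.00544), and in phagocytes 0 keratins were. No paired analysis was possible for epithelial cells by host genotype, because 1 IL1α-/- tumour had under 10 such cells, and leaving out a tumour there left no spread to fit.

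Depth limits these values: IL1α-/- 1 had 24 epithelial cells and 161491 UMIs in that gate, and 0 UMIs there allow a level of up to 18.6 CPM. Krt18 shares 13.2% of its end sequence with other genes, mostly Gm5200, and Krt8 is overlapped by Gm36026 on the other strand, and how such reads were assigned is not given in the sources used here.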
